A study of Mus musculus with 11 samples.

Results

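Type II cadherins and the atypical Cdh13 were followed across 3 kinds of mouse embryonic motor neuron. The 10 genes set out for this description were Cdh6, Cdh7, Cdh8, Cdh9, Cdh10, Cdh11, Cdh12, Cdh13, Cdh20 and Cdh22. Probe sets were taken where the platform annotation gave 1 of these symbols alone. That left 9 of the 10 genes, with 21 probe sets, among 18193 genes measured this way, and Cdh12 had no such probe set and is not described further by level. The values given for a gene are those of its brightest probe set over the 11 arrays, called the representative one, and its other probe sets serve as a check.

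All groups came from embryos of the strain C57/BL6 that carried the Hb9::GFP reporter, in which the promoter of the motor neuron gene Mnx1 (Hb9) drives a green fluorescent protein. Phrenic motor neurons (4 arrays) had taken up a rhodamine dextran from the phrenic nerve, which runs to the diaphragm. Lateral motor column neurons (LMC radial, 3 arrays) had taken it up from the radial nerve of the forelimb. C3-C5 GFP-only neurons (4 arrays) came from segments C3-C5 and carried the reporter without a nerve label, so they are a mixture defined by segment. The sample titles name no segment for the LMC radial neurons, so segment and cell type cannot be told apart in comparisons with them. The labels give no embryonic age and do not say whether replicates were separate litters. The p-values therefore reflect how much these arrays vary, which may be technical.

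Cadherins are calcium-dependent adhesion proteins that bind their like on a neighbouring cell through the outermost of their extracellular domains, and their cytoplasmic tails hold catenins that link them to actin. Type II cadherins also bind some relatives, and mouse proteins fall into affinity groups: Cdh6, Cdh9 and Cdh10 form one, Cdh8 and Cdh11 belong to another, and Cdh7, Cdh12, Cdh20 and Cdh22 to the last. In chick and mouse spinal cord, motor columns and pools carry different combinations of type II cadherins, which take part in the sorting of motor neuron cell bodies. Cdh13 (T-cadherin) stands apart because it has no cytoplasmic tail and is held to the membrane by a lipid anchor.

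In the RefSeq annotation of assembly GRCm38.p6, Cdh6, Cdh9, Cdh10 and Cdh12 follow each other on chromosome 15 with 0 other protein-coding genes between neighbours. Cdh8 and Cdh11 are likewise neighbours on chromosome 8, and Cdh20 and Cdh7 lie on chromosome 1 with 21 protein-coding genes between them. The upstream sequences of the 3 measured genes of the chromosome 15 cluster are shown because Cdh9 and Cdh10 moved together in the data and Cdh6 did not move with them. That of Cdh7 is shown because it had the largest decrease in phrenic neurons among these cadherins. Each is the 250 bases before the annotated start, 5′ to 3′ on the gene's strand, from RefSeq (GRCm38.p6). Cdh9 is at chr15:16728665-16728914 (plus strand), Cdh10 at chr15:18820079-18820328 (plus strand), Cdh6 at chr15:13173676-13173925 (minus strand) and Cdh7, at the most downstream of 3 listed starts, at chr1:109983473-109983722 (plus strand). Capitals mark the longest run shared by Cdh6 and Cdh9, and any match to the homeodomain motifs TGATNNAT or TAATTA on either strand.
Cdh9: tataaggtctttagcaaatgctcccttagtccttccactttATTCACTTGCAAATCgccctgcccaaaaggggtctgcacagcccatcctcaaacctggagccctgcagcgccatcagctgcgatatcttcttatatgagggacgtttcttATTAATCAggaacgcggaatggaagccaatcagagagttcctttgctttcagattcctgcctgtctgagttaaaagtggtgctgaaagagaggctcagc
Cdh10: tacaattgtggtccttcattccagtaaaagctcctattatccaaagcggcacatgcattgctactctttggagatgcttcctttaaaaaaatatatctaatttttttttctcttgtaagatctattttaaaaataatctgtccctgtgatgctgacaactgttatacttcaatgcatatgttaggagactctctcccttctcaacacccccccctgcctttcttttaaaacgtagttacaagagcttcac
Cdh6: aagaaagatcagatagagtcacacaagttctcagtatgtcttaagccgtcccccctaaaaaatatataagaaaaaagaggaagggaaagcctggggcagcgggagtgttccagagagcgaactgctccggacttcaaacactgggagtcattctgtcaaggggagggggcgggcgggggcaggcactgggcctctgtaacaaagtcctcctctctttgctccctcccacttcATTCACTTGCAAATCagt
Cdh7: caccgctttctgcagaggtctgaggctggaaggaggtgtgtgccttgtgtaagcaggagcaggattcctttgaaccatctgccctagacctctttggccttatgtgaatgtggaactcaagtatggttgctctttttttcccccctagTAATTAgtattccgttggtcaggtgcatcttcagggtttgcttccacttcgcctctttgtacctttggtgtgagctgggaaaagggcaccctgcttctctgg
The run ATTCACTTGCAAATC, 15 bases long, starts 209 bases before the start of Cdh9 and 18 bases before that of Cdh6. It occurred in 2 of 32851 upstream windows of this length, those of Cdh6 and Cdh9. The run was picked as the longest shared by the windows of any 2 members, so its rarity is not a test. The other capitals in Cdh9, ATTAATCA, are TGATNNAT read from the opposite strand and start 99 bases before the gene, and 7.68% of all windows hold a match to that motif. The capitals in Cdh7 are TAATTA, 102 bases before that start, and 4.84% of windows hold it. The windows before the other 2 listed starts of Cdh7 held neither motif, and neither did those of Cdh6, Cdh8, Cdh10, Cdh12, Cdh20 and Cdh22. The 8 members with an upstream sequence in the table did not include Cdh11 and Cdh13. A match is a match of letters only.

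Levels below are the deposited log2 RMA values, 1 per probe set and array, and differences are log2 differences ± SE from limma with adjusted p-values over all 45037 probe sets tested. The array medians lay between 4.48 and 4.63, so a mean below 5 is near background. A fold against such a mean is given as at least the fold obtained when values below 5 are raised to 5. Levels are compared between cell types and never between genes, because probe sets differ in brightness. In these sorted pools, fewer cells of a type and less RNA per cell cannot be told apart. Of 8 motor neuron markers, all had means of 5 or more in phrenic and C3-C5 GFP-only neurons, and Chat, Slc5a7 and Lhx3 lay below 5 in LMC radial neurons. As LMC radial minus C3-C5 GFP-only, 4 of the 8 passed as lower (Isl1 -2.36, Mnx1 -0.93, Isl2 -1.05 and Lhx3 -6.16) and 0 as higher, beside 1.88% of all probe sets in each direction. Isl1 was at 10.92, 9.71 and 8.26 in the LMC radial replicates. Lhx3, a gene of the medial motor column, was also lower in phrenic than in C3-C5 GFP-only neurons (-4.90, adjusted p = 0.000385).

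Phrenic replicate 4 stood apart from the other phrenic arrays. It had the highest list mean of all 11 arrays for markers of mesenchyme (6.98), spinal progenitors (7.34), interneurons (6.87), neural crest and Schwann cells (6.52), sensory neurons (6.27) and microglia (4.33), and Lhx3 at 6.93 against 4.22 to 4.79 in the other phrenic arrays. Cadherin calls that change without it are named below. The difference between the 3′ and 5′ probe sets of Actb, a sign of RNA quality, was 1.05, 1.71, 2.15 and 1.96 in phrenic, 1.05, 1.01 and 1.12 in LMC radial and 1.29, 1.98, 1.79 and 1.07 in C3-C5 GFP-only replicates. It thus moved with the comparisons of LMC radial neurons with each of the other types. Phrenic replicate 1 (1.05) and C3-C5 GFP-only replicate 4 (1.07) lay among the LMC radial values. Its part in the results of those comparisons was not tested beyond its use as a covariate. In 4 arrays, replicates 2 and 3 of phrenic and of C3-C5 GFP-only neurons, the 25th percentile of all values was lower (3.18 to 3.20) than in the other 7 (3.26 to 3.38), and within-set values are given where they bear on a result.

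Phrenic neurons stood apart from both other types by high Cdh9 and Cdh10 together with low Cdh7 and Cdh13. Against LMC radial neurons, 2 of the 9 measured cadherins were higher (Cdh9 and Cdh10) and 4 lower (Cdh6, Cdh7, Cdh13 and Cdh20), where 3.48% and 3.14% of all probe sets were called in those directions and 6.61% in either. Against C3-C5 GFP-only neurons, 2 were higher (Cdh9 and Cdh10) and 3 lower (Cdh7, Cdh13 and Cdh20), beside 0.973% and 0.986% of all probe sets and 1.96% in either direction. Both comparisons use the same phrenic arrays. The median log2 difference over the 9 was -0.93 against LMC radial and -0.67 against C3-C5 GFP-only neurons, beside -0.01 and 0 over all probe sets. The members were chosen with earlier results of these data known, so these shares describe the genes and are not a test of the family.

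**Figure D1:**
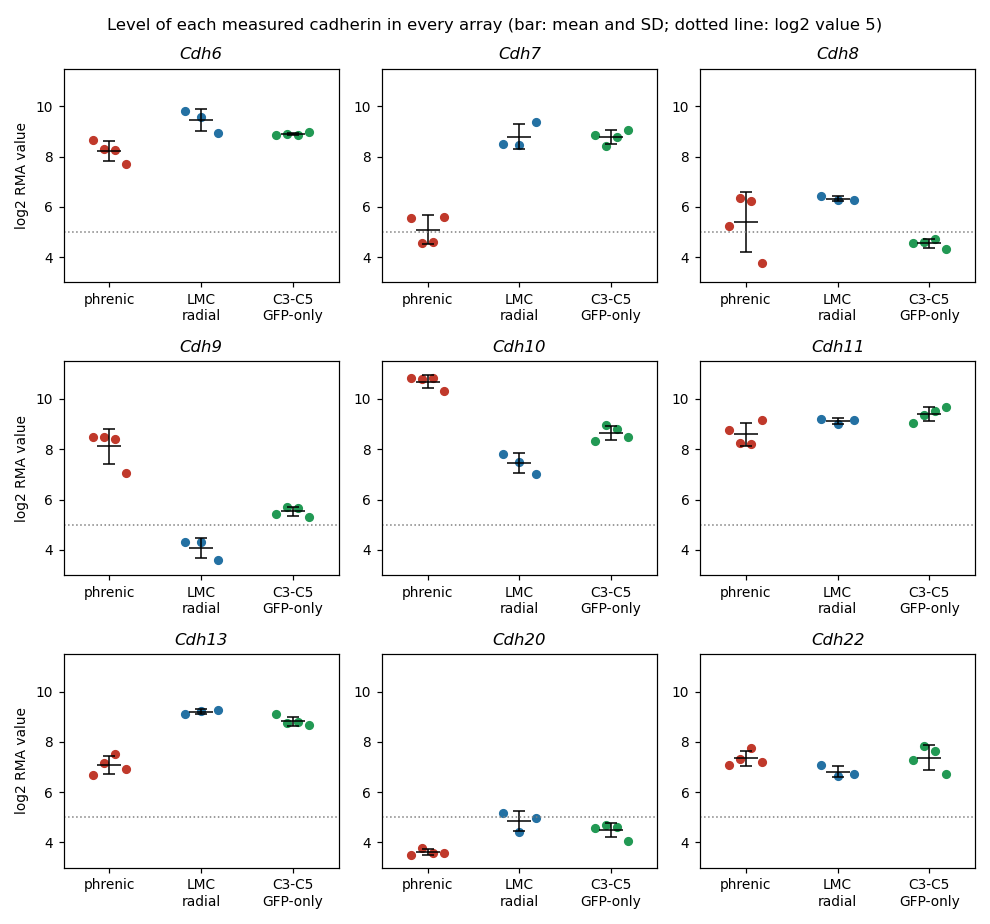
Log2 RMA value (vertical axis) of each of the 9 measured cadherins in every array, 1 point per array, for phrenic (4), LMC radial (3) and C3-C5 GFP-only (4) neurons; bars give the mean and SD, and the dotted line marks the log2 value 5. Cdh9 and Cdh10 were highest in phrenic neurons, and Cdh7 and Cdh13 lowest there, with no overlap between phrenic arrays and the other types.

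Cdh9 belongs to the affinity group of Cdh6 and Cdh10. Its level was 8.47, 8.50, 8.41 and 7.05 in phrenic replicates 1 to 4, 4.32, 4.30 and 3.6 in the 3 LMC radial replicates, and 5.43, 5.71, 5.66 and 5.32 in the 4 C3-C5 GFP-only replicates. No 2 types overlapped, with phrenic neurons highest and LMC radial neurons lowest and near background. Over all probe sets, phrenic arrays lay above LMC radial arrays without overlap for 8.08% and above C3-C5 GFP-only arrays for 3.51%. Phrenic replicate 4 was the lowest of its group and still lay above every array of the other types. Cdh9 was 4.04 ± 0.33 higher in phrenic than in LMC radial neurons on the log2 scale, at least 8.62-fold (adjusted p = 5.66e-05), and 2.58 ± 0.31 higher than in C3-C5 GFP-only neurons, or 5.97-fold (adjusted p = 0.00155). Without phrenic replicate 4 these differences were 4.39 and 2.93.

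Cdh10, the neighbour of Cdh9 on chromosome 15, had the same order of types. Its level was 10.84, 10.79, 10.82 and 10.31 in the phrenic replicates, 7.80, 7.51 and 7.02 in the LMC radial replicates, and 8.34, 8.96, 8.79 and 8.47 in the C3-C5 GFP-only replicates. Again no 2 types overlapped, and phrenic replicate 4 was again the lowest phrenic array. The difference was 3.25 ± 0.22 between phrenic and LMC radial neurons, or 9.50-fold (adjusted p = 1.28e-05), and 2.05 ± 0.20 between phrenic and C3-C5 GFP-only neurons, or 4.14-fold (adjusted p = 0.000417). Without phrenic replicate 4 they were 3.38 and 2.18. Cdh10 had 3 further probe sets, and all 4 passed as higher in phrenic neurons in both comparisons, by 2.52 to 4.14 against LMC radial and by 2.05 to 2.45 against C3-C5 GFP-only neurons. The largest of these differences, 4.14, was measured against an LMC radial mean of 4.83 and was 3.80 with values raised to 5. In each of the 4 probe sets phrenic replicate 4 was the lowest phrenic array. For the least bright probe set both other types had means below 5, and its 2 differences were not called once values under 5 were raised to 5 (adjusted p = 0.218 against LMC radial and 0.227 against C3-C5 GFP-only neurons).

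Cdh6, the remaining gene of this affinity group, did not follow the other two. It stood at 8.65, 8.32, 8.25 and 7.71 in phrenic, 9.82, 9.58 and 8.94 in LMC radial, and 8.86, 8.91, 8.86 and 8.97 in C3-C5 GFP-only replicates. Phrenic arrays were lowest without overlap, as 10.6% of probe sets were against LMC radial and 3.98% against C3-C5 GFP-only arrays, and the C3-C5 GFP-only arrays had an SD of 0.05 (n = 4). Phrenic minus LMC radial was -1.22 ± 0.23, or 2.32-fold lower (adjusted p = 0.0109). The difference from C3-C5 GFP-only neurons, -0.67 ± 0.21, did not pass (adjusted p = 0.178). The Cdh6 call was lost in a fit of phrenic and LMC radial arrays alone (adjusted p = 0.0659), within the 7 arrays of the set with the higher 25th percentile (adjusted p = 0.146) and with the Actb 3′ minus 5′ difference as a covariate (adjusted p = 0.116). The other probe set of Cdh6 had means of 4.33 in phrenic, 5.18 in LMC radial and 4.80 in C3-C5 GFP-only neurons and passed in no comparison.

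**Figure D2:**
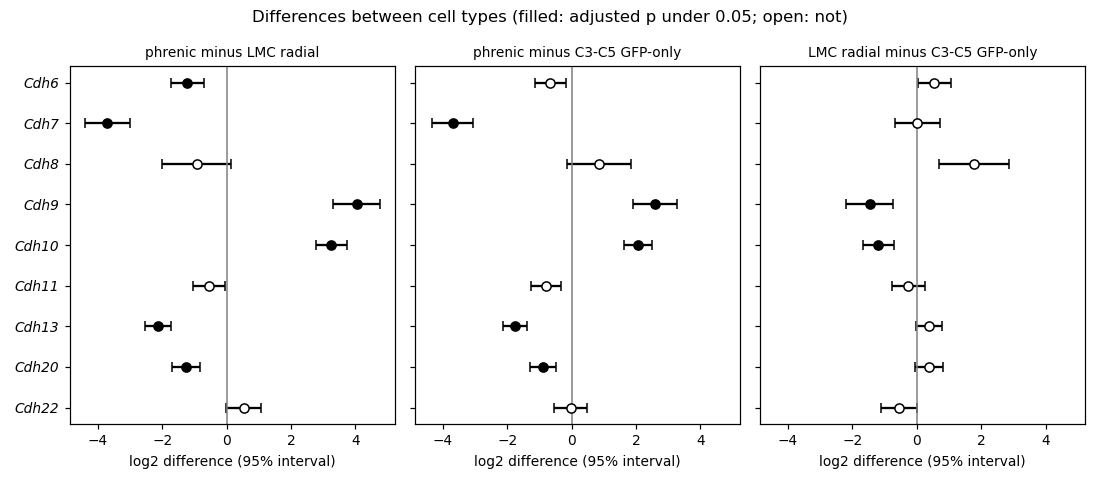
Log2 difference (horizontal axis) with its 95% interval, not adjusted for multiple tests, for each measured cadherin (rows) in the 3 pairwise comparisons; filled points passed at an adjusted p under 0.05 and open points did not. Cdh9 and Cdh10 lie to the right and Cdh7 and Cdh13 to the left in both phrenic comparisons, while in LMC radial minus C3-C5 GFP-only the 2 filled points are Cdh9 and Cdh10.

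Cdh7, of another affinity group, ran opposite to Cdh9 and Cdh10. Its level was 5.57, 4.56, 4.61 and 5.61 in the phrenic replicates, 8.52, 8.48 and 9.37 in the LMC radial replicates and 8.87, 8.43, 8.77 and 9.06 in the C3-C5 GFP-only replicates. Every phrenic array lay below the other 7 arrays, whose 2 types overlapped each other. Phrenic replicates 2 and 3, of the lower array set, lay near their array medians (4.63 and 4.61). Phrenic replicates 1 and 4, of the higher set, lay above theirs (4.55 and 4.54). Phrenic minus LMC radial was -3.70 ± 0.32, at least 11.3-fold lower (adjusted p = 6.97e-05), and phrenic minus C3-C5 GFP-only was -3.69 ± 0.29, at least 11.2-fold lower (adjusted p = 9.68e-05), the folds being those with values below 5 raised to 5. The 2 further probe sets of Cdh7 passed in the same direction, with differences of -4.57 and -3.77 against LMC radial and of -3.85 and -3.97 against C3-C5 GFP-only neurons. Their phrenic means, 4.44 and 3.84, were below 5, and with values raised to 5 the differences were -4.02, -2.61, -3.30 and -2.81 and still passed. Cdh7 passed as lower in phrenic neurons in both comparisons under each of the 24 alternatives run on it.

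LMC radial and C3-C5 GFP-only neurons could not be ordered by Cdh7, because its probe sets disagreed. The representative one gave 0.01 ± 0.32 (interval -0.68 to 0.71, adjusted p = 0.99) and the one with the lowest mean -0.20 ± 0.25 (adjusted p = 0.704). In between, the probe set at 9.02 ± 0.12 (SD, n = 3) in LMC radial and 8.30 ± 0.21 in C3-C5 GFP-only neurons (SD, n = 4) passed with 0.72 ± 0.14 (adjusted p = 0.0208).

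Cdh20, from the same affinity group as Cdh7, was low in all arrays. It was at 3.50, 3.77, 3.59 and 3.58 in phrenic, 5.18, 4.42 and 4.96 in LMC radial, and 4.56, 4.71, 4.61 and 4.07 in C3-C5 GFP-only replicates. The phrenic arrays were lowest without overlap, yet 1 array in all exceeded 5, so these are differences near background. Phrenic minus LMC radial was -1.25 ± 0.20 (adjusted p = 0.00392) and phrenic minus C3-C5 GFP-only -0.88 ± 0.18 (adjusted p = 0.0346), and with values below 5 raised to 5 they became -0.06 and 0 and did not pass. The call against C3-C5 GFP-only neurons was also lost with the replicate number as a block (adjusted p = 0.0636), with quantile normalization (0.0564), within the 7 arrays whose 25th percentile was higher (0.368) and once the mesenchyme marker mean was a covariate (0.563). It was lost as well without any one of phrenic replicates 1, 3 and 4, LMC radial replicate 3 or C3-C5 GFP-only replicates 1, 2 and 3, at adjusted p = 0.052 to 0.115. The call against LMC radial neurons was lost within those 7 arrays (adjusted p = 0.0685). The annotation table lists Cdh7 as an older name of Cdh20, and both were matched by current symbol.

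Cdh22, also of this affinity group, did not pass in any comparison. It ran from 7.09 to 7.75 in phrenic, from 6.64 to 7.06 in LMC radial and from 6.74 to 7.85 in C3-C5 GFP-only arrays. Phrenic arrays lay above LMC radial arrays without overlap, as 8.08% of probe sets did, and the difference was 0.53 ± 0.25 (interval -0.03 to 1.08, adjusted p = 0.252). Phrenic minus C3-C5 GFP-only was -0.03 ± 0.23 with an interval of -0.55 to 0.48.

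Cdh13, the lipid-anchored member, was the other cadherin low in phrenic neurons. It stood at 6.69, 7.17, 7.51 and 6.93 in phrenic, 9.10, 9.24 and 9.27 in LMC radial, and 9.09, 8.75, 8.79 and 8.67 in C3-C5 GFP-only replicates. The phrenic arrays were lowest without overlap but remained above background. Phrenic minus LMC radial was -2.13 ± 0.18, or 4.37-fold lower (adjusted p = 6.97e-05), and phrenic minus C3-C5 GFP-only was -1.75 ± 0.17, or 3.36-fold lower (adjusted p = 0.000378). LMC radial arrays all lay above C3-C5 GFP-only arrays, by 0.38 ± 0.18, which did not pass (adjusted p = 0.274). Non-overlap in that direction was seen for 11.4% of probe sets. Of its 4 probe sets, 3 passed as lower in phrenic neurons in both comparisons. One of these had a phrenic mean of 4.12, and with values raised to 5 its adjusted p was 0.0499 against LMC radial and 0.106 against C3-C5 GFP-only neurons. The remaining one, between 2.78 and 3.33 in all arrays, passed in neither.

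**Figure D3:**
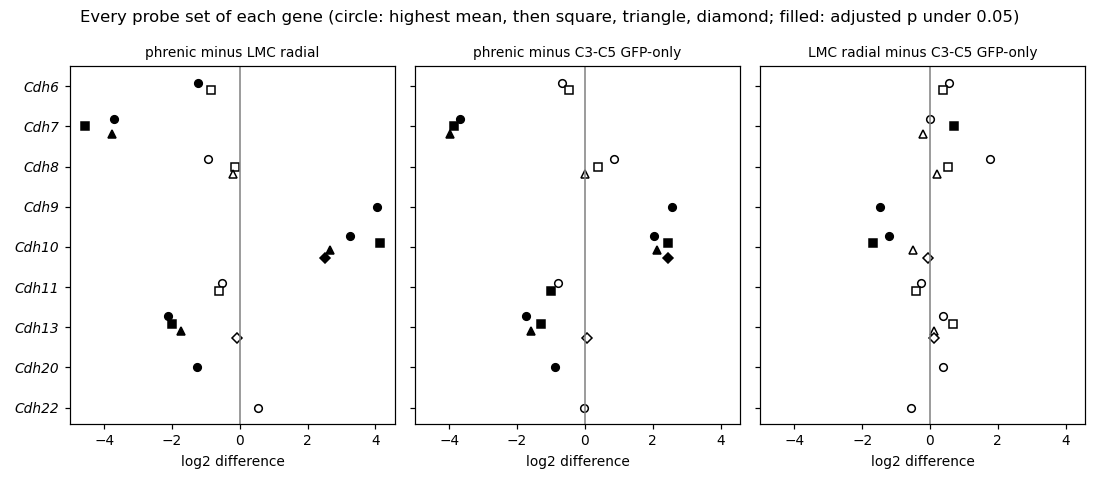
Log2 difference (horizontal axis) of every probe set of each gene (rows) in the 3 pairwise comparisons, with circle, square, triangle and diamond in falling order of mean level; filled symbols passed at an adjusted p under 0.05. All 4 probe sets of Cdh10 and all 3 of Cdh7 are filled in both phrenic comparisons, whereas in LMC radial minus C3-C5 GFP-only the probe sets of Cdh7 lie on both sides of 0.

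Cdh8 and Cdh11 share an affinity group and neighbouring positions on chromosome 8, and neither passed in its representative probe set. Cdh11, known from neurons and from loose mesenchyme, was at 8.76, 8.24, 8.21 and 9.15 in phrenic, 9.21, 9.0 and 9.18 in LMC radial and 9.04, 9.35, 9.51 and 9.66 in C3-C5 GFP-only replicates. Phrenic replicate 4 overlapped both other types, and the other 3 phrenic arrays lay below them. Phrenic minus C3-C5 GFP-only was -0.80 ± 0.21 (adjusted p = 0.0962), and without phrenic replicate 4 it was -0.99 and passed (adjusted p = 0.0153). Phrenic minus LMC radial was -0.54 ± 0.23 (adjusted p = 0.192), and without that array -0.73 (adjusted p = 0.0391). The other probe set of Cdh11 passed against C3-C5 GFP-only neurons with -1.0 ± 0.22 (adjusted p = 0.0489).

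Cdh8 varied most among phrenic arrays. It was at 5.26, 6.35, 6.23 and 3.77 in phrenic, 6.44, 6.28 and 6.28 in LMC radial and 4.55, 4.60, 4.74 and 4.31 in C3-C5 GFP-only replicates. Its SD was 1.19 in phrenic (n = 4) against 0.09 in LMC radial (n = 3) and 0.18 in the 4 arrays of C3-C5 GFP-only neurons, and the phrenic arrays spanned both other types. LMC radial arrays lay above C3-C5 GFP-only arrays without overlap, as 11.4% of probe sets did, and the difference was 1.78 ± 0.49 (at least 2.52-fold) and did not pass with the spread taken over all 3 types (adjusted p = 0.0736). It passed in a fit of those 2 types alone (adjusted p = 0.000362) and without phrenic replicate 4 (adjusted p = 0.00274). Without that array Cdh8 was also 1.40 higher in phrenic than in C3-C5 GFP-only neurons (adjusted p = 0.0103), against 0.85 ± 0.45 with all arrays (adjusted p = 0.488). The 2 other probe sets of Cdh8 had means below 5 in each type.

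Between the types other than phrenic, 2 of the 9 cadherins differed, Cdh9 and Cdh10, both lower in LMC radial neurons, beside 1.88% of probe sets called lower, 1.88% higher and 3.76% in either direction. For both genes the arrays of the 2 types did not overlap, as for 11.7% of probe sets in that direction. Cdh9 gave -1.46 ± 0.33 (adjusted p = 0.0376) and Cdh10 -1.20 ± 0.22 (2.29-fold lower, adjusted p = 0.0141) as LMC radial minus C3-C5 GFP-only. The Cdh9 call was lost when any 1 of the 7 arrays of these types was left out (adjusted p = 0.0621 to 0.133). It was also lost with values below 5 raised to 5, at -0.53, because all LMC radial arrays lay below 5. The same held with array set as a block (adjusted p = 0.114) and within the arrays of the higher set (0.34). It was lost too with the mesenchyme covariate (0.172) and with the Actb covariate (0.112). For Cdh10 the call was lost under 6 of 24 alternatives. Among them were values raised to 5 (adjusted p = 0.0702), the higher set (0.267) and the mesenchyme (0.0552) and Actb covariates (0.0718). The others were the mean of all probe sets (0.1) and leaving out C3-C5 GFP-only replicate 3 (0.0552). The further probe sets of Cdh10 gave -1.69, -0.51 and -0.07, of which the first passed, though not with values raised to 5 (adjusted p = 0.169).

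Set against the mean of the other 2 types, phrenic neurons had the same 2 cadherins higher and the same 4 lower as against LMC radial neurons, beside 2.4% and 1.45% of probe sets and 3.85% in either direction. C3-C5 GFP-only neurons had 1 cadherin called, Cdh7, which was higher by 1.84 ± 0.26 (adjusted p = 0.00861), beside 0.691% of probe sets called higher, 0.282% lower and 0.973% in either direction. LMC radial neurons had 4 higher (Cdh6, Cdh7, Cdh13 and Cdh20) and 2 lower (Cdh9 and Cdh10), beside 3.65% and 3.37% of probe sets and 7.02% in either direction. The Cdh6 call in LMC radial neurons was lost under 8 of 23 alternatives, among them without LMC radial replicate 1 (adjusted p = 0.134) or 2 (0.113) or C3-C5 GFP-only replicate 2 (0.0532) or 3 (0.0565). That of Cdh20 was lost under 4 of 22, among them without LMC radial replicate 1 (0.103) or 3 (0.0886). In phrenic neurons the Cdh6 call was lost under 6 of 23, among them without phrenic replicate 3 (0.0502) or LMC radial replicate 2 (0.0533), and the Cdh20 call under 3 of 22. For Cdh7 and Cdh13 the differences of LMC radial neurons from that mean were 1.86 and 1.25, while LMC radial minus C3-C5 GFP-only was 0.01 and 0.38 and did not pass. Without phrenic replicate 4, Cdh8 and Cdh9 also passed as lower in C3-C5 GFP-only neurons, at -1.59 and -0.74 (adjusted p = 0.00381 and 0.0467). With all arrays they were -1.32 and -0.56 (0.166 and 0.37). Without that array Cdh8 also passed in LMC radial neurons, at 1.08 (0.0107) against 1.35 (0.0903). Cdh11 did so in phrenic neurons, at -0.86 (0.0126) against -0.67 (0.0812).

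For Cdh9, Cdh10, Cdh7 and Cdh13 phrenic minus C3-C5 GFP-only had the same direction within each array set. For Cdh9 phrenic minus C3-C5 GFP-only was 2.77 in the set with the lower 25th percentile and 2.39 in the other, each from 2 arrays a type, and for Cdh10 it was 1.93 and 2.17. For Cdh7 it was -4.01 and -3.37, and for Cdh13 -1.43 and -2.07. Within the 7 arrays of the higher set, 2 of the 5 cadherins called against C3-C5 GFP-only neurons passed, Cdh7 and Cdh13, while Cdh9 (adjusted p = 0.115), Cdh10 (adjusted p = 0.056) and Cdh20 (adjusted p = 0.368) did not. The number of all probe sets called in that set is not given here, so this count is not a share. Cdh8 differed between the sets, at 1.62 in the lower and 0.09 in the higher, and so did Cdh11, at -1.21 and -0.4. Phrenic replicate 4 belongs to the higher set.

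Markers of mesenchyme moved with the phrenic group, as did those of spinal interneurons given further below. The list of 10 markers had array means of 5.40 to 6.98 in phrenic, 4.86 to 6.00 in LMC radial and 4.44 to 4.87 in C3-C5 GFP-only arrays, and sums of 54.0 to 69.8, 48.6 to 60.0 and 44.4 to 48.7. In the same order 3, 4 and 6 of the 10 had means below 5, Lum, Dcn and Postn in every type. The median difference over the list was 1.69 as phrenic minus C3-C5 GFP-only and 0.63 as phrenic minus LMC radial, beside 0 and -0.01 over all probe sets. Against C3-C5 GFP-only neurons, Col1a1 (2.43), Twist1 (2.23), Col3a1 (2.13), Col1a2 (2.06) and Prrx1 (1.91) lay higher in phrenic arrays without overlap, as 3.51% of probe sets did. Their adjusted p-values were 0.0502 to 0.104, and they did not pass. Postn passed (1.35, adjusted p = 0.0384) but lay below 5 in every type and did not pass with values raised to 5. Against LMC radial neurons 0 of the 10 passed, and 0 passed as lower in either comparison. With the list mean as a covariate, the phrenic minus C3-C5 GFP-only differences were 2.93 for Cdh9, 1.93 for Cdh10 and -1.77 for Cdh13, and these did not pass (adjusted p = 0.0628, 0.0686 and 0.0503). Cdh20 did not pass either (-0.70, adjusted p = 0.563). Cdh7 passed with that covariate. Phrenic replicate 4, lowest of its group in Cdh9 and Cdh10, had the highest list mean, 6.98, and phrenic replicate 3, with 6.67, had Cdh9 at 8.41 and Cdh10 at 10.82. Whether other cells contributed to these values was not tested.

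**Figure D4:**
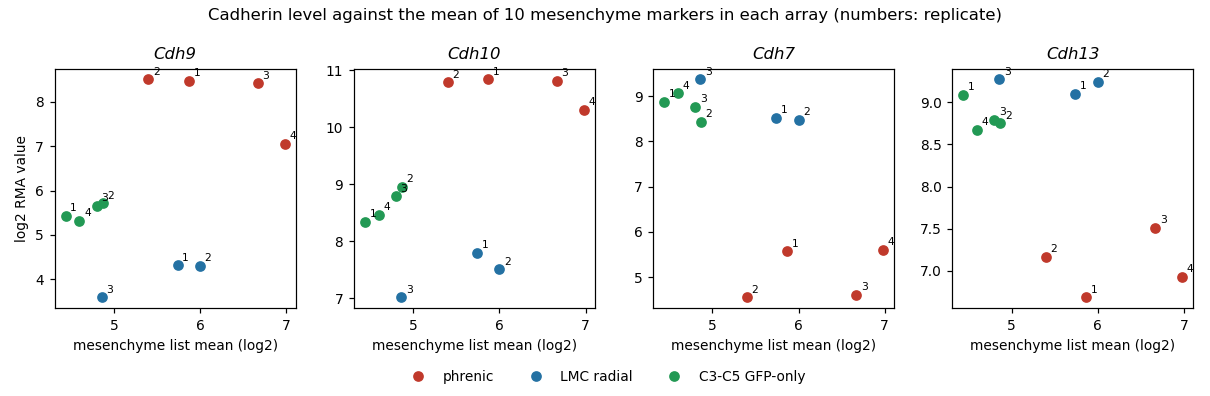
Log2 RMA value of Cdh9, Cdh10, Cdh7 and Cdh13 (vertical axes, different scales) against the mean log2 level of 10 mesenchyme markers (horizontal axis) in each array; colours give the cell type and numbers the replicate. Mesenchyme means were 5.40 to 6.98 in phrenic, 4.86 to 6.00 in LMC radial and 4.44 to 4.87 in C3-C5 GFP-only arrays. Phrenic arrays lie highest for Cdh9 and Cdh10 and lowest for Cdh7 and Cdh13. The part of mesenchyme in these differences was not tested.

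Markers of other cell types were also followed. The endothelial list averaged 3.73 to 4.90 in phrenic, 3.51 to 4.33 in LMC radial and 3.36 to 3.76 in C3-C5 GFP-only arrays, and Cdh5, the endothelial type II cadherin, had means of 3.99, 3.84 and 3.58. Of the 6 endothelial markers 0 passed in any pairwise comparison. The microglial list averaged 3.54 to 4.33, 3.78 to 3.93 and 3.47 to 3.71, and that of neural crest and Schwann cells 3.73 to 6.52, 4.46 to 5.07 and 4.12 to 4.54. Spinal progenitor markers averaged 5.68 to 7.34, 5.67 to 6.47 and 5.46 to 5.75, interneuron markers 4.95 to 6.87, 4.21 to 5.35 and 4.17 to 4.88, and sensory neuron markers 5.52 to 6.27, 5.70 to 5.96 and 5.51 to 6.11. Each triple of ranges runs from phrenic through LMC radial to C3-C5 GFP-only arrays. In each of these lists 0 genes passed in a pairwise comparison. The median difference over the 4 measured interneuron markers was 1.43 as phrenic minus C3-C5 GFP-only and 1.17 as phrenic minus LMC radial. For mesenchyme these medians were 1.69 and 0.63, and for the remaining lists they lay at 0.03 to 0.58 and at 0.05 to 0.31. The part of any of these lists in the cadherin differences was not tested.

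Other genes of the cadherin system were taken from 4 lists. Of 5 type I cadherins, which bind mainly their own kind, 0 passed in any pairwise comparison. Cdh2 (N-cadherin), the main neuronal one, was at 11.27 ± 0.08 (SD, n = 4) in phrenic, 11.44 ± 0.15 (n = 3) in LMC radial and 11.26 ± 0.24 in C3-C5 GFP-only neurons (SD, n = 4), with an interval of -0.47 to 0.14 for phrenic minus LMC radial. Cdh4 (R-cadherin) was at 5.05, 4.59, 5.42 and 6.75 in phrenic replicates and between 6.26 and 6.76 in all 7 other arrays. Phrenic replicate 4 alone overlapped them, and the differences of -1.04 ± 0.40 and -1.02 ± 0.37 from LMC radial and C3-C5 GFP-only neurons did not pass (adjusted p = 0.149 and 0.238). The other type II cadherins with a probe set, Cdh5, Cdh18 and Cdh19, had means below 5 in each type, and 0 of the 3 passed.

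Among 10 catenins and other cadherin partners, 2 were higher in phrenic than in C3-C5 GFP-only neurons with 0 lower, beside 0.973% and 0.986% of all probe sets. Against LMC radial neurons 2 were higher and 2 lower, beside 3.48% and 3.14%. Those higher were the same in each comparison, Jup and Pkp4. Jup (plakoglobin), a relative of beta-catenin that binds cadherin tails, was at 9.35, 9.21, 9.58 and 9.57 in phrenic, 8.12, 7.87 and 7.95 in LMC radial, and 8.57, 8.58, 8.52 and 8.27 in C3-C5 GFP-only replicates. No 2 types overlapped, and phrenic arrays were highest, by 1.45 ± 0.13 over LMC radial (2.73-fold, adjusted p = 0.000105) and by 0.95 ± 0.12 over C3-C5 GFP-only neurons (1.93-fold, adjusted p = 0.00244). Pkp4 (p0071), of the p120-catenin family, was higher by 0.63 ± 0.09 (adjusted p = 0.00239) and 0.51 ± 0.09 (adjusted p = 0.0114). The neural delta-catenin Ctnnd2 was lower than in LMC radial neurons (-0.43 ± 0.11, adjusted p = 0.0469), as was Ctnna3 (-0.46 ± 0.12, adjusted p = 0.0488), whose means lay below 5 in each type. Ctnna3 was not called with values below 5 raised to 5. Beta-catenin, Ctnnb1, was at 12.40, 12.44 and 12.40 in phrenic, LMC radial and C3-C5 GFP-only neurons.

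Of the nectins and afadin, an adhesion system that works beside cadherins, 1 of 5 genes passed as higher and 1 as lower in phrenic than in LMC radial neurons, and 1 as lower in LMC radial than in C3-C5 GFP-only neurons. In those directions 3.48%, 3.14% and 1.88% of all probe sets were called. Nectin3 was at 8.52, 8.07, 7.90 and 8.77 in phrenic, 5.06, 5.57 and 5.92 in LMC radial and 7.28, 7.89, 7.87 and 7.86 in C3-C5 GFP-only replicates. No 2 types overlapped, though phrenic replicate 3 (7.90) and C3-C5 GFP-only replicate 2 (7.89) nearly met. Phrenic arrays lay above LMC radial arrays without overlap for 8.08% of probe sets and above C3-C5 GFP-only arrays for 3.51%. LMC radial neurons were below the others, with phrenic minus LMC radial at 2.80 ± 0.26 (6.95-fold, adjusted p = 0.000117) and LMC radial minus C3-C5 GFP-only at -2.21 ± 0.26 (4.62-fold lower, adjusted p = 0.00155). Phrenic minus C3-C5 GFP-only, 0.59 ± 0.24, did not pass (adjusted p = 0.31). Nectin4 was lower in phrenic than in LMC radial neurons (-0.74 ± 0.18, adjusted p = 0.0345), with means below 5 in each type, and was not called with values below 5 raised to 5 (adjusted p = 0.766).

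**Figure D5:**
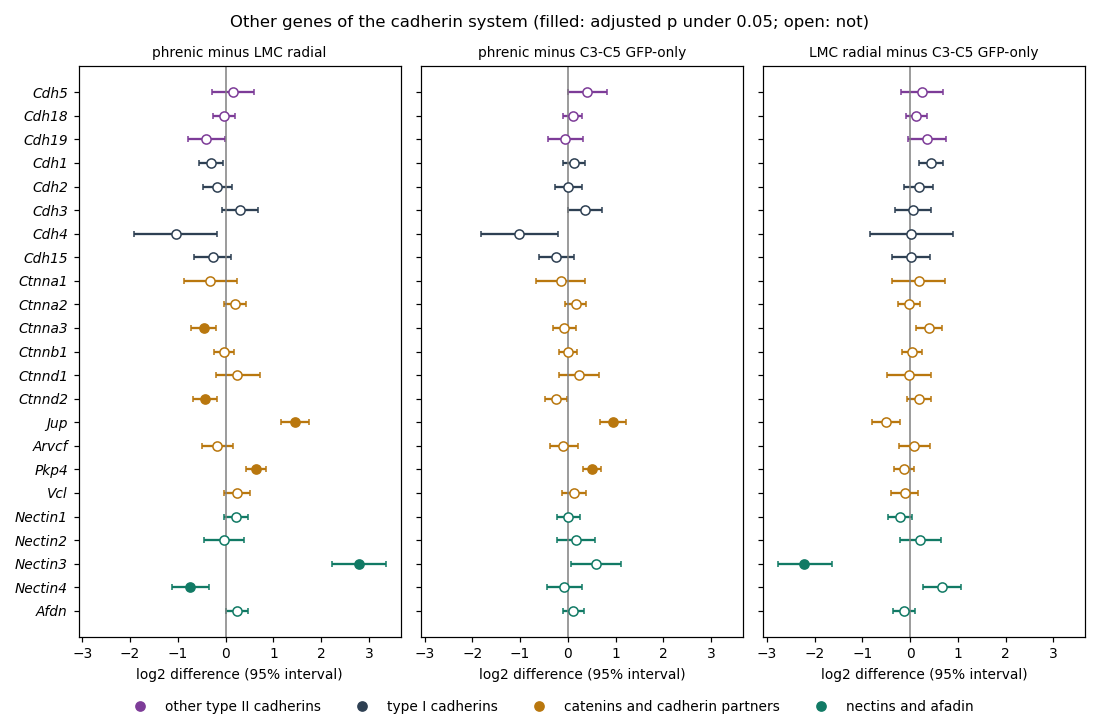
Log2 difference (horizontal axis) with its 95% interval, not adjusted for multiple tests, for 23 other genes of the cadherin system (rows, coloured by list) in the 3 pairwise comparisons; filled points passed at an adjusted p under 0.05. Jup and Pkp4 are filled to the right in both phrenic comparisons, and Nectin3 stands out where LMC radial neurons take part.

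Genes whose values over the 11 arrays were most like those of the main members were sought among 10878 genes with a mean of 5 or more in a type. Most like Cdh9 were Psd3 (Pearson r = 0.991), Skap2 (0.989) and Fkbp1b (0.985), and most like Cdh10 were St8sia4 (0.989), a polysialyltransferase, Ptpn3 (0.988) and Skap2 (0.986). Skap2 thus stood near both, at 10.47 ± 0.17 (SD, n = 4) in phrenic, 9.03 ± 0.10 (n = 3) in LMC radial and 9.59 ± 0.04 in C3-C5 GFP-only neurons (SD, n = 4). Most like Cdh7 were the transcription factor Bcl11b (0.979), the phosphatase Dusp4 (0.973) and Mfap3l (0.972). Mfap3l was at 8.71 ± 0.42 in phrenic, 11.39 ± 0.08 in LMC radial and 11.02 ± 0.10 in C3-C5 GFP-only neurons. These likenesses describe 3 groups of arrays that share their processing, and no p is attached to them.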

How the data were processed

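RNA of sorted motor neurons was measured on 11 Affymetrix arrays, 1 per sample, with cRNA made from 6 ug of total RNA per the labels' protocols. The deposited values are log2 probe set summaries made by the authors with RMA (background correction, quantile normalization and summary of probes), per the submitters' processing notes; the version is not given in the sources used here. Of its 45101 probe sets, 45037 were tested without a filter, and 64 controls were not. Precision is limited by how few arrays there are. Gene names came from the platform annotation (34945 probe sets with 1 symbol, 932 with several, 9160 with none).

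Samples were grouped by title. A mean per type was fitted to all arrays in limma 3.58.1 under R 4.3.3 (8 residual and 2.92 prior degrees of freedom), with pairwise contrasts and each type against the mean of the other 2. Two-sided p-values were adjusted by Benjamini and Hochberg over all probe sets, and an adjusted p under 0.05 passes. All members and listed cadherin genes are named whatever their result, as are the 3 genes most like Cdh7, Cdh9 and Cdh10. Members and lists were chosen with earlier results of these data known.

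Alternatives covered normalization, centring, a floor at 5, dim probe sets, the variance prior, array weights, a replicate block, fits of 2 types, array sets split at the widest gap between 25th percentiles, covariates for mesenchyme markers and for the Actb 3′ minus 5′ difference, gene means and leaving out each array. Samples of phrenic and C3-C5 GFP-only neurons with the same number deviated together (correlations of 0.125 to 0.224 in 4 of 4 pairs), and each such pair lay within one array set. Differently numbered samples of the same set deviated together as well (0.179 to 0.28), and samples of different sets deviated in opposite ways (-0.254 to -0.125). These correlations thus followed the array set and gave no separate sign of a pairing by number. The labels state no pairing, and the replicate block was run as an alternative only. Such correlations were absent from the other comparisons. The model was tested on simulated data with independent noise, 45037 probe sets in all. For phrenic minus C3-C5 GFP-only, 95 of 100 changes of 2 on the log2 scale and 62 of 100 changes of 1 were recovered. False calls among the unchanged probe sets were 3 there and 11 for phrenic minus LMC radial. The real arrays deviate together by array set, which the simulation leaves out, so its false calls do not carry over to them. Promoter windows were searched with Python 3.11.15.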

Additional observations from a re-analysis of the deposited data

Results flagged for a closer look

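In groups of 4 arrays, an array whose gap to the nearest other array was too large a share of the group's whole range by Dixon's test at the 95% level was noted. This held for 9 of the 80 groups tested, and chance gives about 1 in 20. Among the cadherins described, phrenic replicate 4 was low in Cdh9, at 7.05 against 8.41 to 8.5 in the other phrenic arrays, and in Cdh10, at 10.31 against 10.79 to 10.84. The same array was at 8.53 in Psd3, against 9.06 to 9.15, but Psd3 was chosen for its likeness to Cdh9 over these arrays, so that value is no separate observation. Without the 8 genes chosen for likeness, 8 of 64 groups were noted. The array also had the highest list means for mesenchyme (6.98), progenitor (7.34), interneuron (6.87), neural crest and Schwann cell (6.52), sensory neuron (6.27) and microglial (4.33) markers, whose part in these values was not tested.

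Among other cadherins, phrenic replicate 3 was high in Cdh5 (4.61 against 3.76 to 3.8) and phrenic replicate 1 in Cdh18 (2.69 against 2.45 to 2.46), both near background. C3-C5 GFP-only replicate 4 was high in Cdh15, at 6.21 against 5.6 to 5.69. Phrenic replicate 2 was low in Pkp4, at 12.01 against 12.17 to 12.2. C3-C5 GFP-only replicate 1 was low in Vcl (10.92 against 11.08 to 11.09) and in Nectin3 (7.28 against 7.86 to 7.89).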

How the results depend on the processing

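Over the 9 cadherins, 6 comparisons and all alternatives, 1146 of 1263 values kept their direction and side of the threshold, 63 lost a call, 29 gained one and 25 changed sign. The number of cadherins passing as phrenic minus C3-C5 GFP-only, 5 with all arrays, was 2 in the 7 arrays of the higher set and 1 with the mesenchyme covariate, and 4 to 6 without 1 array. Calls over all probe sets in this comparison changed too, from 882 to between 127 and 1194 under the settings other than leaving out 1 array. The counts here are therefore not shares, and fewer cadherin calls can go with fewer calls everywhere. As phrenic minus LMC radial it was 6, with 4 to 6 under other settings and 6 to 7 without 1 array. As LMC radial minus C3-C5 GFP-only it was 2, with 0 under the floor, in the higher set and with either covariate, 4 with array weights, and 0 to 3 without 1 array. Against the mean of the others it was 6 for phrenic and 6 for LMC radial neurons, with 4 to 7 over all settings for each. For C3-C5 GFP-only neurons it was 1, with 2 when dim probe sets were left out, 4 with array weights, 0 in the higher set, 0 with the mesenchyme covariate and 1 to 3 without 1 array.

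Signs changed only for values that did not pass. Cdh22 as phrenic minus C3-C5 GFP-only became 0.15 in the higher set and ran from -0.24 to 0.13 without 1 array, and against the mean of the others it was -0.06 in phrenic neurons with the Actb covariate. Cdh7 as LMC radial minus C3-C5 GFP-only was -0.01 with array weights, -0.33 with array set as a block, -0.17 in the higher set, -0.24 with the Actb covariate and -0.28 to 0.17 without 1 array. Cdh8 in phrenic neurons against the mean was 0.04 under the floor, 0.31 with weights, 0.12 with the replicate block, 0.67 with the mesenchyme covariate and -0.35 to 0.51 without 1 array. Cdh11 in LMC radial neurons was -0.02 with array set as a block and -0.02 in the higher set. In C3-C5 GFP-only neurons Cdh6 was -0.01 with weights, -0.01 with the mesenchyme covariate and -0.07 to 0.15 without 1 array, and Cdh20 was -0.03 under the floor. The cause was not tested.

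With the replicate block, 4 cadherins passed as phrenic minus C3-C5 GFP-only, 6 as phrenic minus LMC radial and 2 as LMC radial minus C3-C5 GFP-only. In the pairwise comparisons it changed no call of these cadherins other than that of Cdh20. The number of all probe sets called with that block is not given here, so the counts of 4, 6 and 2 are not shares. In the main fit, without the block, the passing numbers over all probe sets were 882, 2979 and 1694. They were 458 to 1240, 1678 to 4266 and 606 to 2654 without 1 array, and 127 to 1194, 778 to 3872 and 98 to 6685 under other settings. Against the mean of the others they were 1733 for phrenic, 3163 for LMC radial and 438 for C3-C5 GFP-only neurons, with 511 to 1890, 551 to 6864 and 24 to 1758 under other settings. Centring the arrays moved the median of all phrenic minus LMC radial differences to -0.104, against -0.013 as deposited. Cdh20 was itself left out with the dim probe sets and has no value there.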
